A study of Homo sapiens with 6 samples.

Results

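The S100 and annexin gene families were followed in RNA-seq libraries of cells labelled SW620, a line derived from human colorectal cancer. Members were the genes of the count table whose symbol begins with S100, or with ANXA and a digit, with antisense and pseudogene symbols left out. The rule found 28 of 20729 genes, namely 14 S100 genes, 12 annexin genes, and S100PBP and ANXA2R. The last 2 meet the rule by name only, since they encode a binding protein of S100P and a receptor of annexin A2. Libraries after a control siRNA (siNC, 3 libraries) were set against libraries after an siRNA to OSBPL3 (siOSBPL3, 3 libraries), the lipid-transfer gene that the series concerns. All 6 libraries carry the same cell line label. The duration and dose of the siRNA are not given in the sources used here. The labels do not state whether the repeats are separate cultures, so the spread behind each p-value is that among these 6 libraries and could be technical only.

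S100 proteins are small EF-hand proteins that bind calcium, pair into dimers and then grip target proteins. Most of their genes lie together on chromosome 1q21. Annexins bind acidic membrane phospholipids when calcium rises, through a conserved core, and their variable N-terminal tails are docking sites for S100 partners. S100A10, which does not itself need calcium, joins annexin A2 in a complex that recruits plasminogen at the cell surface, and S100A11 binds annexin A1. Both families are widely read in epithelial tumours, including those of the colon.

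The groups differed far beyond these families, which sets the background for every count here. Libraries held from 30040020 to 39701340 counts. Log2 expression correlated at 0.992 between siNC libraries, at 0.984 to 0.989 between siOSBPL3 libraries and at 0.745 to 0.751 between groups. OSBPL3 stood at 179, 174 and 175 CPM (the count of a gene scaled to a common library size by the TMM method) in siNC and at 40.2, 12.2 and 15.1 CPM in siOSBPL3, with the weakest reduction in siOSBPL3 replicate 1. That library also lay apart from the others of its group, with a chi-square per degree of freedom of 41.8 and 48.9 against them and of 18.4 between them (2.94 to 3.52 within siNC). Of 16 colorectal epithelial markers, EPCAM, KRT8, KRT18, KRT19 and CDH1 were abundant in both groups, but CDX1 had only 0 and 6 counts per group, and CDX2 stood at 1.16 CPM in siNC and 63.5 CPM in siOSBPL3. VIL1 stood at 482 and 62.6 CPM, and TFF3 had 1434 counts over siNC and 1 over siOSBPL3. An effect of the siRNA and a difference between the cells used for each group cannot be told apart in these data. As these are bulk samples, fewer cells of a type and less RNA per cell cannot be told apart either.

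Of the 28 members, 25 passed the filter on low counts and were tested; S100A7, S100Z and ANXA8L1 did not pass. In siOSBPL3, 10 members were higher and 10 lower at an adjusted p under 0.05 (edgeR quasi-likelihood test), while 5 did not pass the test. Over all 15506 genes tested, 80.2% were called, 40.4% higher and 39.8% lower, so a call alone did not set the members apart. At least 2-fold changes were called in 10 members (6 higher and 4 lower), beside 48.9% of all genes. Values in the 2 groups did not overlap in 23 of the 25 members, beside 83.0% of all genes (41.5% without overlap and higher, 41.5% without overlap and lower). The filter asked for its minimum in 3 libraries. ANXA8 reached it in 0 siNC libraries, S100A1 in 0 siOSBPL3 libraries and ANXA13 in 1 siOSBPL3 library, so these genes passed through the group where they are high and had to differ.

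The S100 genes split into a small set that rose and a larger set that fell. Of 12 tested, S100A14, S100A10 and S100A11 rose, 7 fell and 2 (S100A13 and S100P) did not pass the test. Over all genes, 40.4% were higher and 39.8% lower. S100A1, among the 7 that fell, passed the filter through siNC alone. The median log2 fold change of the S100 genes was -0.32 beside 0.00 over all genes. That median was -0.03 when a mean of 5 CPM or more was required, -0.53 without siOSBPL3 replicate 1 and -0.95 with a correction for GC and length of transcripts. In CPM without this correction, the 3 that rose added more than the 7 that fell lost. Summed over the 14 S100 genes, the level was 2064, 1995 and 1980 CPM in siNC and 2777, 2428 and 2566 CPM in siOSBPL3, a ratio of means of 1.29. Whether this sum rises with the correction was not tested. The correction put S100A14, S100A10 and S100A11 at log2 fold changes of 2.53, 0.82 and 0.29. It put the abundant S100A4, S100A6 and S100A16 at -0.97, -1.02 and -0.93. The 12 annexin genes summed to 1902, 1885 and 1911 CPM in siNC and 3243, 3485 and 3567 CPM in siOSBPL3, a ratio of 1.81. No siOSBPL3 library overlapped a siNC library in either sum.

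**Figure D1:**
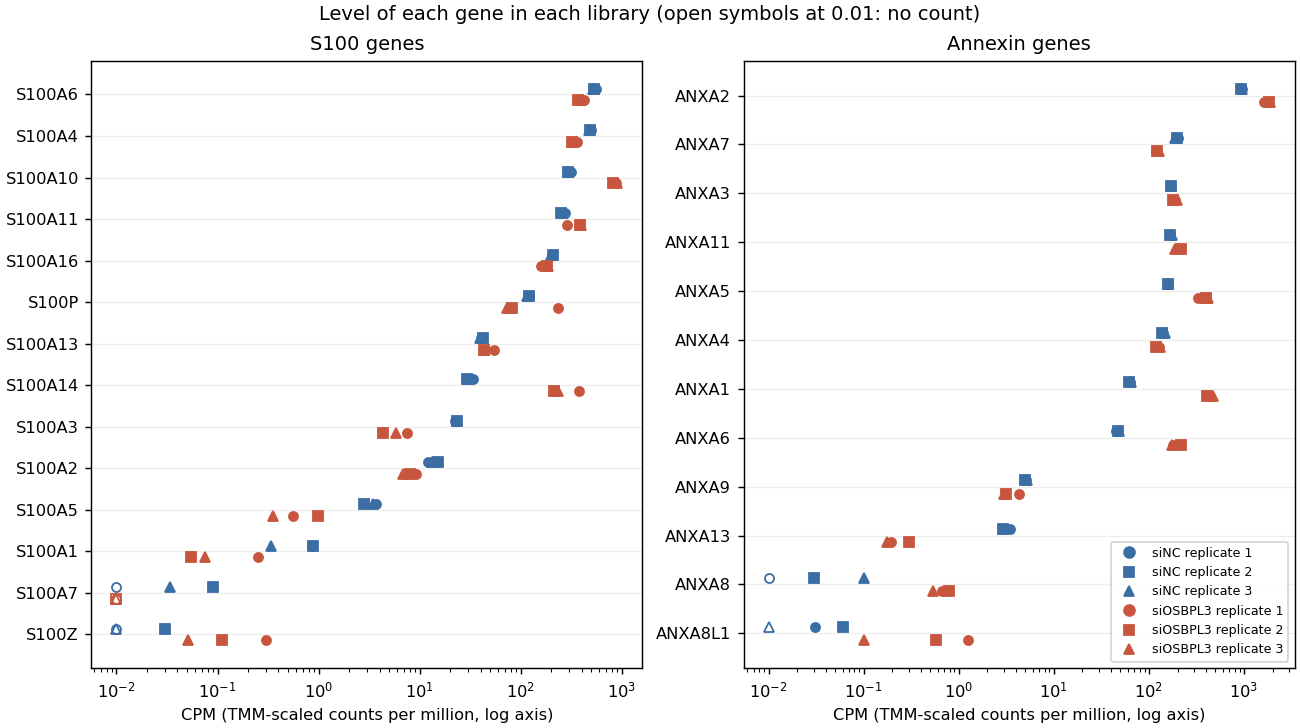
Level of each S100 gene (left) and annexin gene (right) in each library, in CPM on a log axis, with siNC in blue and siOSBPL3 in red and a symbol for each replicate number; open symbols at 0.01 stand for no count. S100A14, S100A10, ANXA1 and ANXA6 lie to the right in all 3 siOSBPL3 libraries, and S100P is split, with replicate 1 at 231 CPM and the other siOSBPL3 libraries at 73.8 and 82.2 CPM.

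S100A14, an S100 protein of epithelia that lacks a complete calcium-binding loop, rose the most among the tested S100 genes. It stood at 33.9, 29.6 and 30.2 CPM in siNC and at 378, 211 and 232 CPM in siOSBPL3. Every siOSBPL3 library was above every siNC library, and replicate 1 was the highest. The log2 fold change was 3.13 ± 0.20 (SE; adjusted p = 1.2e-07, edgeR), 2.83 without siOSBPL3 replicate 1 and 2.53 once each library was corrected for the GC content and length of transcripts.

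S100A10, the annexin A2 partner also called p11, stood at 311, 294 and 293 CPM in siNC and at 870, 820 and 903 CPM in siOSBPL3. The groups lay far apart and each was tight, for a log2 fold change of 1.53 ± 0.08 (adjusted p = 3.7e-09, edgeR) that became 0.82 after this GC and length correction. S100A11, the annexin A1 partner, stood at 271, 250 and 264 CPM in siNC and at 287, 387 and 396 CPM in siOSBPL3. Replicate 1 was barely above siNC and the other siOSBPL3 libraries were clearly above it (0.45 ± 0.12, adjusted p = 0.0035, edgeR). After the correction S100A11 no longer passed (0.29, adjusted p = 0.10), in a range of adjusted p from 1.8e-07 to 0.10 over all alternatives.

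The most abundant S100 transcripts of the control cells were S100A4 and S100A6, and both fell by a modest amount. S100A4, a regulator of myosin and motility often tied to metastasis, stood at 498, 479 and 477 CPM in siNC and at 361, 320 and 322 CPM in siOSBPL3 (-0.54 ± 0.08, adjusted p = 5.9e-05, edgeR). S100A6, or calcyclin, stood at 549, 530 and 523 CPM in siNC and at 420, 371 and 397 CPM in siOSBPL3 (-0.43 ± 0.08, adjusted p = 3.0e-04, edgeR). Neither gene's groups overlapped. S100A4 is also known from fibroblasts, whose markers (5 of 7 measured) summed to 69.9 to 74.4 CPM in siNC and 3.19 to 5.95 CPM in siOSBPL3, carried by LUM with 5785 and 0 counts per group, while COL3A1 had 0 and 1 counts. The part of such cells in the S100A4 value was not tested. The correction for GC content and length made both falls larger, at -0.97 for S100A4 and -1.02 for S100A6.

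Larger falls occurred in scarcer S100 genes. S100A3, a cysteine-rich protein known from the hair cuticle, stood at 22.5, 23.2 and 23.2 CPM in siNC and at 7.45, 4.35 and 5.79 CPM in siOSBPL3. All siOSBPL3 libraries were well below all siNC libraries (-1.97 ± 0.17, adjusted p = 4.0e-07, edgeR, and -2.67 with the correction). S100A5, known from olfactory neurons, went from 3.68, 2.80 and 3.47 CPM to 0.55, 0.98 and 0.35 CPM (-2.39 ± 0.38, adjusted p = 9.4e-05, edgeR). S100A2, a nuclear S100 protein of squamous epithelia, went from 12.0, 15.2 and 13.1 CPM to 9.17, 8.01 and 6.88 CPM (-0.75 ± 0.15, adjusted p = 7.0e-04, edgeR). These 3 genes showed no overlap between groups.

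S100A1, the calcium regulator of heart and muscle, rested on few reads and passed the filter through siNC alone, so it had to differ. It had 28, 29 and 10 counts in siNC and 9, 2 and 3 counts in siOSBPL3 (-2.43 ± 0.66, adjusted p = 0.0046, edgeR), and its log2 fold change was -3.32 without siOSBPL3 replicate 1 and -3.04 with the correction. The gene lies wholly inside the span of S100A13 on the opposite strand, and the strand setting of the counting is not given in the sources used here. Reads from any transcribed stretch that the pair shares therefore cannot be told apart. How far their exons overlap was not examined.

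The smallest S100 differences hung on the settings. S100A16, a widely expressed member, stood at 201, 207 and 198 CPM in siNC and at 160, 180 and 185 CPM in siOSBPL3 (-0.21 ± 0.09, adjusted p = 0.039, edgeR). It missed the threshold when any of the siNC libraries was left out (adjusted p from 0.066 to 0.11) or when library totals replaced TMM factors (adjusted p = 0.050), and the correction made the fall -0.93, with adjusted p from 2.8e-06 to 0.11 over all alternatives. S100A13, which helps release FGF1 from cells, stood at 40.3, 42.4 and 39.7 CPM in siNC and at 54.2, 43.3 and 43.1 CPM in siOSBPL3. Its log2 fold change of 0.20 ± 0.10 did not pass (adjusted p = 0.097, edgeR), passed without siOSBPL3 replicate 3 (0.26, adjusted p = 0.041) and turned to -0.26 with the correction (adjusted p = 0.021), in a range of adjusted p from 0.021 to 0.31.

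S100P, first described in placenta and a known marker of gastrointestinal tumours, showed how much a single library could carry. It stood at 122, 121 and 115 CPM in siNC and at 231, 82.2 and 73.8 CPM in siOSBPL3. Replicate 1 was above all siNC libraries and the other siOSBPL3 libraries were below all of them, so the groups overlapped (0.11 ± 0.46, adjusted p = 0.83, edgeR). Leaving out siOSBPL3 replicate 1 gave a log2 fold change of -0.61 with an adjusted p of 2.0e-06, in a range of adjusted p from 2.0e-06 to 0.90 over all alternatives. Of the 25 tested members, 11 had siOSBPL3 replicate 1 as the library farthest from the others of its group, beside 44.4% of all genes tested, and S100P had the greatest such distance of the members (1.57 on the log2 scale). Leaving out that library turned the sign of no other tested member.

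S100A7 and S100Z were near the detection limit. S100A7, or psoriasin, had 4 counts over siNC and 0 over siOSBPL3, too few for a fold. S100Z had 1 count over siNC and 17 over siOSBPL3, 14.5 times as many after scaling (exact 95% counting interval 2.27 to 606). Replicate 1 held 11 of the 17, and the ratio was 7.54 without it. It was at least 3.16 (against 3 counts) without siNC replicate 2, the library with the single siNC count, and 9.52 without siNC replicate 1. Intervals of this kind cover counting error only. S100A8, S100A9 and S100A12, the calgranulins of myeloid cells, and S100B were not analysed here. Counts of the neutrophil and monocyte markers measured (7 of 10) summed to 20.1 to 22.2 CPM in siNC and 9.89 to 13.9 CPM in siOSBPL3. CD68 carried most of the siNC sum, at 19.0 CPM in siNC and 5.87 CPM in siOSBPL3, and LYZ went from 1.93 to 0.18 CPM. The pan-leukocyte marker PTPRC had 8 and 12 counts per group, FCER1G 14 and 32, and MPO 3 and 0. ITGAM and CD14 went the other way from CD68, at 2 and 227 and at 27 and 346 counts. Markers of glia and melanocytes (4 of 7 measured) summed to 6.33 to 8.40 CPM in siNC and 5.08 to 6.56 CPM in siOSBPL3.

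S100PBP, the S100P-binding protein gene, is no S100 gene and lies on another arm of chromosome 1. It went from 27.0, 27.8 and 27.1 CPM to 33.9, 33.9 and 36.0 CPM, without overlap (0.34 ± 0.09, adjusted p = 0.0036, edgeR).

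**Figure D2:**
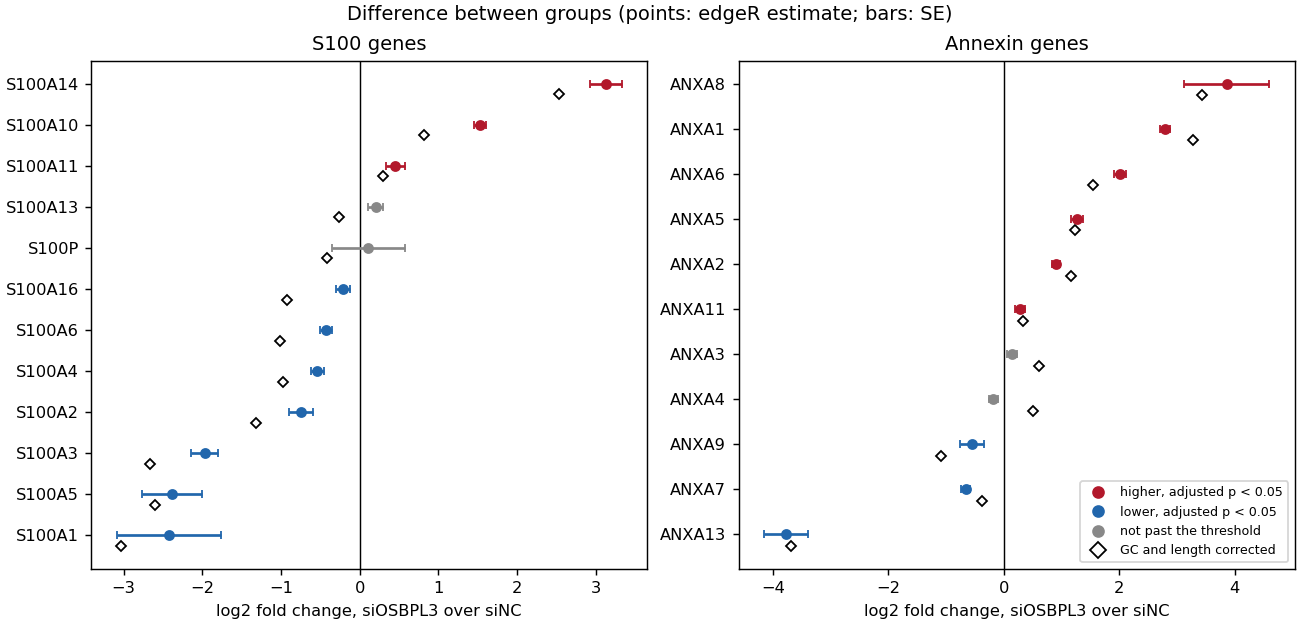
Log2 fold change of siOSBPL3 over siNC for the tested S100 genes (left) and annexin genes (right), with circles for the edgeR estimate, bars for its SE, red for higher, blue for lower and grey for not past the threshold; open diamonds give the corrected value (GC content, length). Diamonds lie left of the circles for all 12 S100 genes, and on both sides for the annexin genes.

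The correction for GC content and length moved the whole S100 family one way. All 12 tested S100 genes shifted downward, by 0.15 to 0.73 on the log2 scale, whereas 7 of 11 annexin genes shifted upward and 4 downward. S100 transcripts are short and rich in GC, with a median of 1072 bases and 55.2% GC for the longest transcript of each gene, beside 2452 bases and 45.2% in the annexin genes and 3462 bases and 49.0% in all genes corrected. With the correction 2 S100 genes were higher and 8 lower, beside 6053 higher and 5193 lower of 14435 genes corrected. S100A14 and S100A10 were those still higher. The part of GC content and length in the S100 differences was not tested further.

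Of 11 annexin genes tested, 6 were higher (ANXA1, ANXA2, ANXA5, ANXA6, ANXA8 and ANXA11), 3 lower (ANXA7, ANXA9 and ANXA13) and 2 (ANXA3 and ANXA4) did not pass, beside 40.4% of all genes higher and 39.8% lower. ANXA8 was among the genes that passed the filter only through siOSBPL3, and ANXA13 among those that passed through siNC. The median log2 fold change was 0.28, and 0.58 to 0.61 without any single siNC library, without siOSBPL3 replicate 3, without the filter, at a mean of at least 5 CPM or with the correction. With library totals in place of TMM, 7 were higher and 2 lower.

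ANXA1, the glucocorticoid-induced annexin that signals through formyl peptide receptors, stood at 63.7, 61.9 and 64.7 CPM in siNC and at 442, 410 and 467 CPM in siOSBPL3. The groups were narrow and far apart, for a log2 fold change of 2.79 ± 0.09 (adjusted p = 7.1e-11, edgeR), 6.94-fold on the linear scale. It was 3.28 with the GC and length correction. ANXA6, an annexin with an unusually long core that links membranes and shapes endocytic traffic, stood at 45.5, 47.5 and 48.6 CPM in siNC and at 181, 215 and 176 CPM in siOSBPL3 (2.01 ± 0.10, adjusted p = 2.2e-09, edgeR).

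ANXA5, whose binding to exposed phosphatidylserine is the basis of the apoptosis stain, stood at 159, 158 and 158 CPM in siNC and at 330, 394 and 422 CPM in siOSBPL3 (1.27 ± 0.10, adjusted p = 1.5e-07, edgeR). ANXA2, the most abundant annexin in both groups, stood at 946, 939 and 953 CPM in siNC and at 1640, 1826 and 1854 CPM in siOSBPL3 (0.91 ± 0.07, adjusted p = 2.6e-07, edgeR). ANXA11, an RNA-granule adaptor of lysosomes, rose slightly, from 165, 167 and 174 CPM to 207, 216 and 190 CPM (0.28 ± 0.08, adjusted p = 0.0083, edgeR). In each of these genes all siOSBPL3 libraries were above all siNC libraries. Processed pseudogenes similar to ANXA2 exist in the genome, so that its counts may have lost or gained reads in alignment.

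ANXA7, ANXA9 and ANXA13 were lower. ANXA13, the annexin of intestinal epithelium, stood at 3.47, 2.89 and 2.90 CPM in siNC and at 0.19, 0.30 and 0.18 CPM in siOSBPL3 (-3.77 ± 0.38, adjusted p = 1.5e-06, edgeR). It passed the filter through siNC, with 1 siOSBPL3 library at the minimum, so it had to differ. ANXA7, or synexin, a membrane-fusion annexin, went from 201, 197 and 187 CPM to 119, 122 and 129 CPM (-0.66 ± 0.08, adjusted p = 8.0e-06, edgeR). ANXA9, an atypical annexin with poor calcium binding, went from 5.08, 4.97 and 5.23 CPM to 4.32, 3.14 and 2.98 CPM (-0.55 ± 0.21, adjusted p = 0.032, edgeR). None of the 3 overlapped between groups, but ANXA9 missed the threshold when any siNC library, or siOSBPL3 replicate 2 or 3, was left out and under library totals, with an adjusted p from 5.5e-04 to 0.095 over all alternatives.

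ANXA3 and ANXA4 stayed close to their control levels. ANXA3, an annexin tied to vessel growth, stood at 172, 169 and 171 CPM in siNC and at 190, 177 and 196 CPM in siOSBPL3 (0.14 ± 0.08, adjusted p = 0.13, edgeR). ANXA4, a self-assembling annexin of secretory epithelia, stood at 141, 138 and 147 CPM in siNC and at 128, 119 and 130 CPM in siOSBPL3 (-0.18 ± 0.08, adjusted p = 0.054, edgeR). With the GC and length correction both were called higher, at 0.61 and 0.50, which reversed the sign for ANXA4; adjusted p ran from 9.1e-06 to 0.27 for ANXA3 and from 8.7e-05 to 0.17 for ANXA4 over all alternatives. ANXA4 passed as lower under 6 alternatives, among them DESeq2 (adjusted p = 0.031), limma-voom (0.044) and the fits without siOSBPL3 replicate 1 (0.014) or 3 (0.031). ANXA3 also passed as higher under library totals (adjusted p = 0.040) and without siOSBPL3 replicate 2 (0.049).

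ANXA8 and its near-identical copy ANXA8L1 were scarce, and reads can be split between them, so their separate levels are uncertain. ANXA8 had 4 counts over siNC and 74 over siOSBPL3, 15.8 times as many after scaling (95% counting interval 5.91 to 59.4). Its fitted log2 fold change of 3.86 ± 0.74 (adjusted p = 4.3e-04, edgeR) became 5.16 without siNC replicate 3. ANXA8L1 had 3 counts over siNC and 45, 21 and 4 counts in siOSBPL3, so that its ratio of 19.9 (interval 6.53 to 98.8) came mostly from siOSBPL3 replicate 1 and was 10.5 without it. The ANXA8L1 ratio was 39.0 without siNC replicate 2, and the ANXA8 ratio 43.5 without siNC replicate 3 and 10.4 without siNC replicate 1. ANXA2R, which is no annexin, stood at 1.46, 2.23 and 1.82 CPM in siNC and at 1.72, 1.94 and 1.97 CPM in siOSBPL3 and overlapped between groups (0.03 ± 0.30, adjusted p = 0.93, edgeR).

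Levels can be set against each other between genes only per transcript length, here as CPM per kilobase (kb). On that scale, S100A4 (852 CPM per kb), S100A6 (793) and ANXA2 (655) led in siNC, each above 99.2% of genes tested or more. In siOSBPL3, ANXA2 (1228 CPM per kb) and S100A10 (951) led, followed by S100A11 (600), S100A6 (588) and S100A4 (588), levels that lay within each other's spread. ANXA1 moved from percentile 81.8 to percentile 97.6 of genes tested, S100A14 from 79.1 to 97.8 and ANXA6 from 73.5 to 92.6, while S100A3 moved from 80.8 to 49.6.

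The make-up of the S100 pool therefore differed between groups, while that of the annexin pool kept its main member. S100A10 made up 11.5% ± 0.13 (SD, n = 3) of the S100 CPM per kb in siNC and 28.3% ± 1.13 (n = 3) in siOSBPL3. S100A4 went from 29.7% ± 0.022 to 17.5% ± 0.63 and S100A6 from 27.7% ± 0.15 to 17.5% ± 0.29. S100A14 went from 1.02% ± 0.054 to 7.56% ± 2.17. Among the annexins, ANXA2 held 58.1% ± 0.095 in siNC and 58.1% ± 0.81 in siOSBPL3, whereas ANXA1 went from 3.02% ± 0.047 to 11.2% ± 0.87 and ANXA7 from 7.05% ± 0.30 to 2.38% ± 0.066. These shares are a description, with no test.

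**Figure D3:**
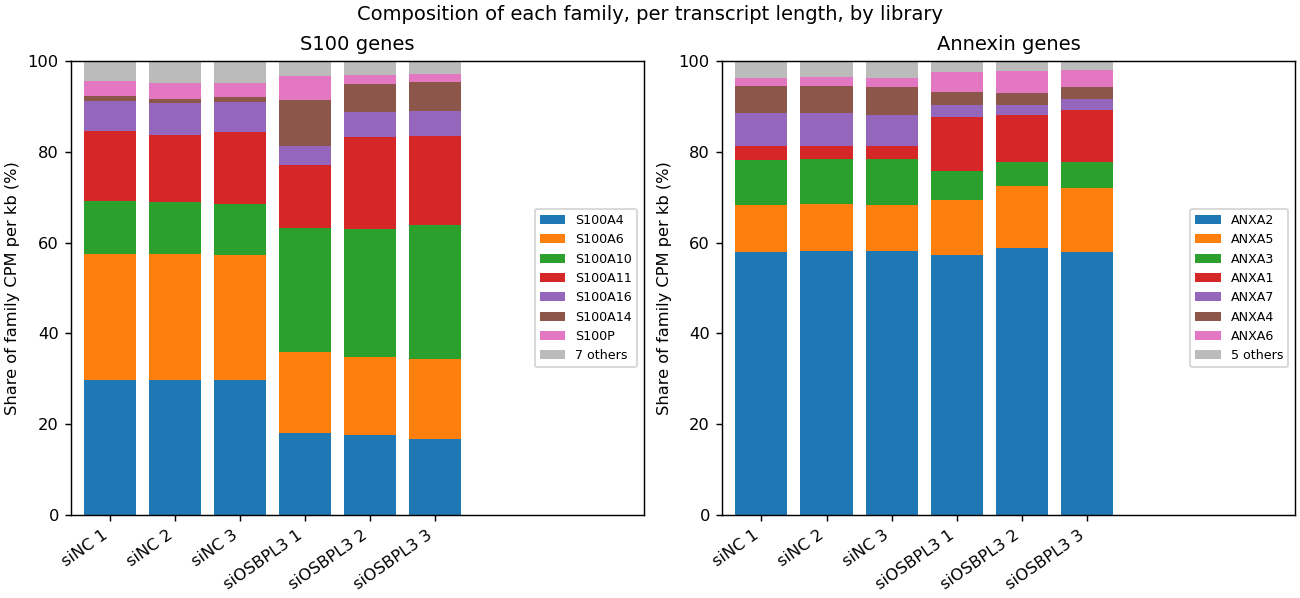
Share of each gene in the summed CPM per kb of its family, in percent, for each of the 6 libraries, with the 7 largest members coloured and the rest in grey. S100A10 and S100A14 take a larger part of the S100 bars in siOSBPL3, and ANXA2 takes about the same part of all annexin bars.

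Partner ratios within a library do not depend on the size factors between libraries, but they do depend on corrections that differ by gene. The S100A10 to ANXA2 ratio, in counts per kb, was 0.52, 0.50 and 0.49 in siNC and 0.84, 0.71 and 0.77 in siOSBPL3, a log2 difference of 0.63 between group means that turned to -0.35 with the GC and length correction. The S100A11 to ANXA1 ratio was 13.3, 12.6 and 12.8 in siNC and 2.03, 2.95 and 2.65 in siOSBPL3, a log2 difference of -2.36 (-2.99 with the correction). The neighbours S100A4 and S100A6 kept a ratio near 1 throughout, at 1.07, 1.07 and 1.08 in siNC and at 1.02, 1.02 and 0.96 in siOSBPL3 (log2 difference -0.10, and 0.05 with the correction). In none of these 3 pairs did the groups overlap. The exact two-sided permutation test gave p = 0.10 for each, also after adjustment over the 3 pairs, which is the smallest value that 3 libraries against 3 allow.

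**Figure D4:**
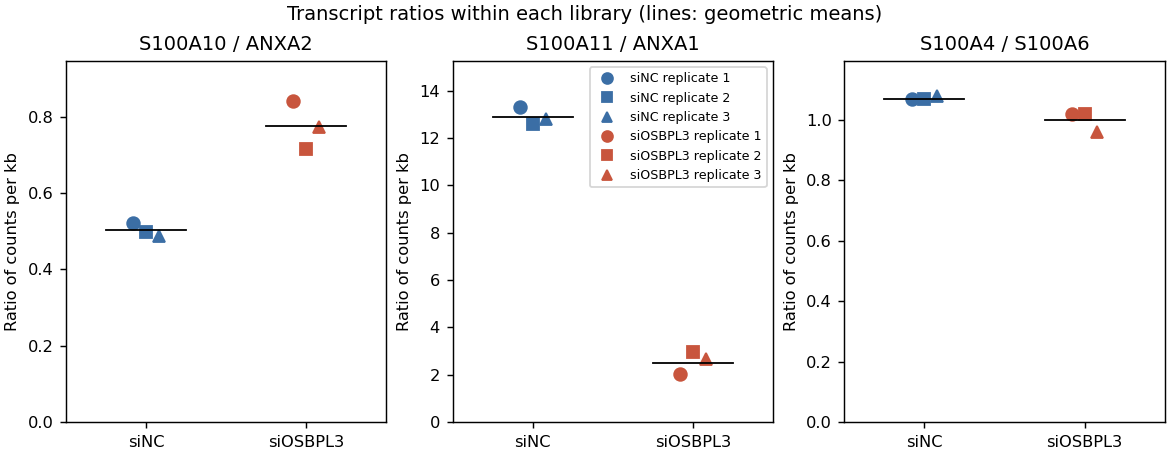
Ratio of counts per kb within each library for 3 pairs of genes, with siNC in blue, siOSBPL3 in red, a symbol for each replicate number and a line at the geometric mean of each group. The S100A11 to ANXA1 ratio fell from a geometric mean of 12.9 to 2.51, the S100A10 to ANXA2 ratio went from 0.50 to 0.78, a direction that turned with the GC and length correction (log2 difference -0.35), and the S100A4 to S100A6 ratio stayed near 1.

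The 12 S100 genes of 1q21 in the table spanned 1.65 Mb of chromosome 1 (GRCh38.p14). S100A10 (start 151982915, end 151993859) and S100A11 (152032506 to 152037004) sit at the near end, and both rose. In the dense far end, the 6 adjacent S100 genes from S100A6 (153534599 to 153535991) to S100A16 (153606883 to 153613137), a stretch of 78.5 kb, were all lower (39.8% of all genes were): S100A6, S100A5, S100A4, S100A3, S100A2 and, with the call that depended on settings, S100A16. S100A14 (153614255 to 153616325) begins 1117 bases beyond S100A16, yet rose the most of the tested S100 genes. A change of direction thus fell between immediate neighbours. No test of position was made, and the members of the run share a region.

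Overlaps between annotated genes limit this reading. S100A4 and S100A5 overlap by 65 bases on the same strand. The antisense transcript LOC101928034 runs across S100A3 and reaches into S100A4 and fell as well (-1.71 ± 0.38, adjusted p = 0.0013, edgeR). Without a stated strand setting, its reads in shared stretches cannot be told from those of S100A3 and S100A4. S100A13 also overlaps the start of CHTOP.

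A list of 10 other genes of the table between the outermost S100 genes held mostly genes of the epidermal cornified envelope, and 7 of these had too few counts to test. SPRR2D, a small proline-rich envelope protein gene, had 1 count over siNC and 728 over siOSBPL3 (ratio 621, 95% counting interval 111 to 24551, and at least 143 without siNC replicate 3, which held the 1 count; 408 and 405 without siNC replicates 1 and 2). TCHH, encoding the S100-fused protein trichohyalin, rose from 0.38 to 4.64 CPM (3.60 ± 0.39, adjusted p = 3.0e-06, edgeR). FLG had 5 counts over siNC and 0 over siOSBPL3. Of the squamous keratinocyte markers, 6 of 10 were measured, and their sum was 75.7 to 76.8 CPM in siNC and 218 to 259 CPM in siOSBPL3, carried by SFN and KRT10, with KRT5 at 122 and 13 counts per group, KRT14 at 2 and 7 and TP63 at 5 and 8. The part of squamous differentiation in the S100A14 and SPRR2D values was not tested.

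**Figure D5:**
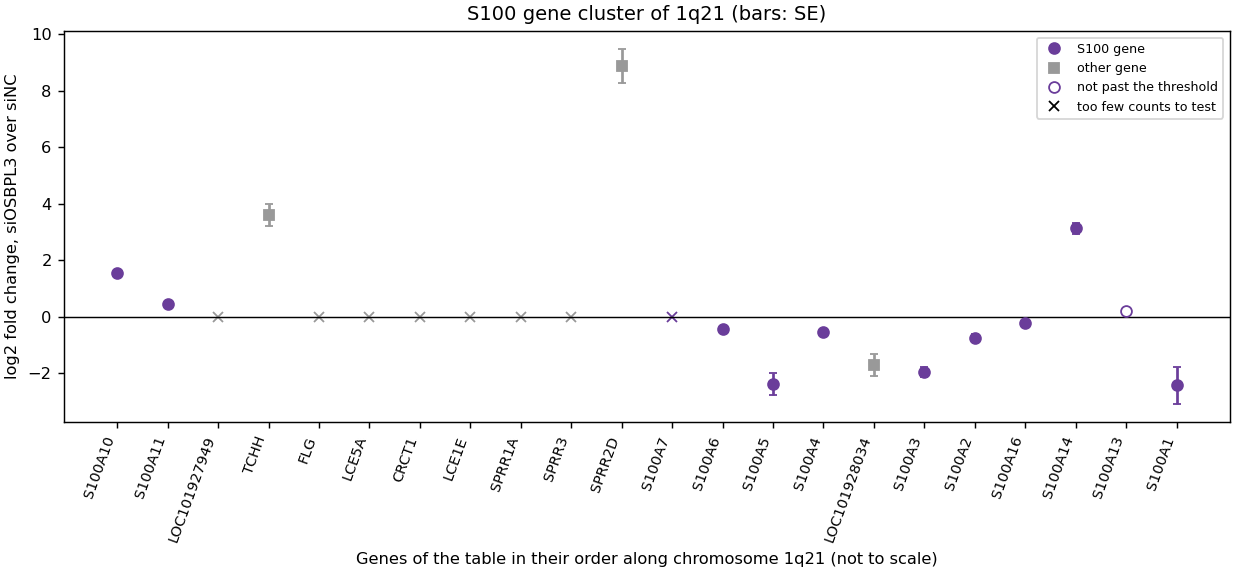
Log2 fold change (siOSBPL3 over siNC, bars for SE) of the genes of the table between S100A10 and S100A1 on 1q21, in chromosomal order and not to scale, with S100 genes as purple circles and other genes as grey squares; crosses on the 0 line mark genes with too few counts and carry no value. The run from S100A6 to S100A16 lies below 0 and S100A14, its next neighbour, lies at 3.13.

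The sequence just upstream of the gene start is shown for 5 members on which the results turn, namely the partners S100A10 and ANXA2, the tested S100 gene with the largest rise, ANXA1, and S100A3 as a gene of the falling run. Each is the 250 bases before the start that RefSeq gives on GRCh38.p14, 5′ to 3′ on the gene's own strand, with capitals for a match to the AP-1 motif TGANTCA or the TATA box TATAAA.
S100A10 (chr1:151993860-151994109, minus strand): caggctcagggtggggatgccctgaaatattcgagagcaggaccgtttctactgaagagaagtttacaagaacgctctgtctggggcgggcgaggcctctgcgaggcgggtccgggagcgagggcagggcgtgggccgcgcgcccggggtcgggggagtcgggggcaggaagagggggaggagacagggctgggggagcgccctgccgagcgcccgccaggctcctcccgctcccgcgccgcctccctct
ANXA2 (chr15:60397987-60398236, minus strand): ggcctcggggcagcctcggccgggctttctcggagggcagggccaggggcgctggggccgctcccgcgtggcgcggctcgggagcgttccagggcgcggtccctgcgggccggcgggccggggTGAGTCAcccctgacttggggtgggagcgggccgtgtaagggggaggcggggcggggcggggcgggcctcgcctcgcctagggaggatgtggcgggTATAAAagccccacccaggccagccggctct
ANXA1 (chr9:73151615-73151864, plus strand): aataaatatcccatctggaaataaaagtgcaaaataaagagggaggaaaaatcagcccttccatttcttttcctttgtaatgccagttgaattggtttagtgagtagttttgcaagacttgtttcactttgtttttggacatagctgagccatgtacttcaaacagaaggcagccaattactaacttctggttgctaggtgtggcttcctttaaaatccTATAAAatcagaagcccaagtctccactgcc
S100A14 (chr1:153616326-153616575, minus strand): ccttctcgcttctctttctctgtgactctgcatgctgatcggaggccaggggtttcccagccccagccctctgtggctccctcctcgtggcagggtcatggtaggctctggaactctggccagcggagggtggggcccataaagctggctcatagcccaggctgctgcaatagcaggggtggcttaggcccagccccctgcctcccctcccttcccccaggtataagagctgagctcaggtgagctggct
S100A3 (chr1:153549259-153549508, minus strand): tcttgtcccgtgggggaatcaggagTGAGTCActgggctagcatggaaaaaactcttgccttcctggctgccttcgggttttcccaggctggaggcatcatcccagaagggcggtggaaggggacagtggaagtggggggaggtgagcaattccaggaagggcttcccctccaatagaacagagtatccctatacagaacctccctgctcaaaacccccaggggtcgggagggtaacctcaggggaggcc

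Both strands were searched, and 26 of the 28 members had an upstream sequence listed. Those of S100PBP, S100Z and ANXA9 lie inside the annotated span of their gene, not before its outer start. They are kept in the counts, among them the TGANTCA match of S100PBP and the TATAAA match of S100Z. TGANTCA occurred in ANXA2, S100A2, S100A3 and S100PBP, 4 of the 26, beside 6.60% of all 27305 upstream sequences of the same length. TATAAA occurred in 7 of the 26 beside 11.1%, and lay 31 bases upstream of the start in ANXA1, ANXA2 and S100A4. The TEAD motif GGAATG, searched because the series concerns YAP signalling, occurred in S100A16 alone (11.9% of all sequences), and the interferon-stimulated response element in 0 of the 26 (3.07%). A loose NF-kB pattern occurred in 20 of the 26, beside 53.7% of all sequences; it is not capitalised, and none of its matches overlapped a capitalised one in the sequences shown. The ANXA1 sequence holds 0 CpG dinucleotides and that of S100A14 holds 4, beside 24 for S100A10, 28 for ANXA2 and a median of 11 over all sequences. Genes that rose thus included both CpG-rich and CpG-poor starts, and a match is a description of letters only.

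Genes for proteins that act with these families moved in both directions. Of a list of 40 binding partners, receptors and membrane-repair genes, 30 were tested. Of these, 12 rose, 9 fell and 9 did not pass (median 0.17), beside 40.4% of all genes higher and 39.8% lower. Of the 7 receptor genes, BSG, a receptor reported for S100 proteins, rose from 410 ± 3.21 to 748 ± 42.9 CPM (SD, n = 3 each; 0.87 ± 0.08 SE, adjusted p = 5.1e-07, edgeR), but stood at 0.04 with the GC and length correction. AGER, the RAGE receptor for extracellular S100 proteins, stood at 4.96 ± 0.55 CPM (SD, n = 3) in siNC and 4.67 ± 0.80 CPM (n = 3) in siOSBPL3 and did not pass (-0.09 ± 0.20, adjusted p = 0.71, edgeR). TLR4, another S100 receptor, had 67 counts over siNC and 1 over siOSBPL3 (ratio 78.6, interval 13.6 to 3149, and at least 17.8 without siOSBPL3 replicate 1, which held the 1 count; 50.9 without siOSBPL3 replicate 3). The annexin A1 receptor genes were near the limit: FPR1 had 0 and 47 counts, at least 13.4-fold higher against 3 counts over siNC and at least 6.29-fold without siOSBPL3 replicate 1, which held 32 of them (8.72 to 9.22 without a siNC library), FPR2 had 1 and 6, and FPR3 had 0 in both groups.

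In the plasmin system that the S100A10 and annexin A2 complex serves, the urokinase receptor gene rose and the activator genes did not pass. PLAUR, the urokinase receptor, rose from 19.0 ± 1.23 to 171 ± 17.6 CPM (n = 3 each; 3.17 ± 0.10 SE, adjusted p = 8.4e-11, edgeR). PLAU (-0.19 ± 0.11, adjusted p = 0.13, edgeR) and PLAT (-0.20 ± 0.30, adjusted p = 0.55), the plasminogen activators, did not pass. Also listed for this system, PLGRKT did not pass (0.18 ± 0.12, adjusted p = 0.19, edgeR). ENO1 was higher (0.52 ± 0.08, adjusted p = 5.3e-05, edgeR), and at 0.22 with the GC and length correction. AHNAK, the giant scaffold bound by the complex, was slightly lower (-0.24 ± 0.09, adjusted p = 0.023) but at 0.50 with the GC and length correction, and HLTF, a chromatin partner, was lower (-0.39 ± 0.09, adjusted p = 0.0018) but at 0.52 with the correction. DLC1, whose protein binds S100A10, had 10 counts over siNC and 715 over siOSBPL3 (5.88 ± 0.42, adjusted p = 7.3e-08) and passed the filter through siOSBPL3 alone, so it had to differ.

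Of the other partners, PPP5C, a phosphatase that S100 proteins activate, rose (1.38 ± 0.11, adjusted p = 1.5e-07, edgeR). SYT1, the synaptic calcium sensor found with S100A13 and FGF1 in a release complex, fell from 215 ± 0.88 to 0.25 ± 0.13 CPM (n = 3 each; -9.73 ± 0.19, adjusted p = 1.9e-12), and reached the filter's minimum in 3 siNC and 2 siOSBPL3 libraries. PDCD6IP, the ALIX protein of membrane scission, was lower (-0.63 ± 0.08, adjusted p = 9.0e-06), but stood at 0.12 with the correction. In membrane repair, where annexins cap torn membrane, DYSF (dysferlin), which reached the minimum in 1 siNC library, rose (4.20 ± 0.34, adjusted p = 2.0e-07) and its relative MYOF fell (-1.29 ± 0.12, adjusted p = 6.1e-07).

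EF-hand and C2-domain genes outside the families gave the frame for these values. Of 34 tested genes for other EF-hand proteins 18 rose, 7 fell and 9 did not pass (median 0.51). Over all genes, 40.4% were higher and 39.8% lower. EHD2, a membrane-shaping ATPase, rose by 6.35 ± 0.17 and RCN1, an ER calcium binder, by 2.16 ± 0.08 on the log2 scale, while the actin bundler LCP1 (-7.98 ± 0.12) and the buffer CALB1 (-12.37 ± 0.23) fell, CALB1 from 37921 counts over siNC to 8, having passed the filter through siNC alone. SPRR2D and TLR4 also passed it through 1 group. Of 21 copine and other C2-domain genes, only some of which reach membranes through calcium as annexins do, 9 rose, 11 fell and 1 did not pass (median -0.72). CPNE2 (2.55 ± 0.11) and SYT7 (3.81 ± 0.19) rose, and ESYT3 (-3.88 ± 0.21) and SYTL4 (-1.84 ± 0.11) fell, all with an adjusted p of 1.4e-08 or less (edgeR). The changes in S100 and annexin genes lay inside the range of these lists.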

How the data were processed

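The authors deposited raw read counts per gene symbol for 6 libraries. Per the submitters' processing notes, HISAT2 2.2.1, HTSeq 0.13.5 and GRCh38 were used; annotation and strand setting are not given in the sources used here. Each column was tied to its sample through the library name, and groups came from sample titles.

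Counts were tested with edgeR 4.0.16 (R 4.3.3): filterByExpr (minimum count 10, total 15), TMM, robust quasi-likelihood fit on group, two-sided, Benjamini-Hochberg over 15506 genes, threshold 0.05. SE is the log2 fold change over the root of F. All replicate pairs differed by more than sampling noise. The test was checked on simulated counts in which far fewer genes changed than were called here. Folds against 0 counts use a floor of 3 counts over a group; ratios with few counts carry exact 95% binomial intervals. Per-kb levels use the median length of coding transcripts in GENCODE 29. The correction for GC content and length fits smooth terms of the longest transcript's values per library (mgcv 1.9.3) and covered 14435 genes and all tested members. Alternatives were DESeq2 1.42.0, limma-voom (limma 3.58.1), unfiltered genes, RLE factors, a stricter threshold of 0.01, a minimum mean of 5 CPM, unscaled library totals, a replicate block and each library left out. Positions and upstream sequences came from RefSeq.

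All members were named, with OSBPL3, preset partners and the partner and comparison genes with the smallest adjusted p; others were chosen after their values were seen. Members and lists were chosen with earlier results of these data known. A planned S100A8 to S100A9 ratio was not analysed here.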

Additional observations from a re-analysis of the deposited data

How the results depend on the processing

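Of the 25 tested members, 17 kept their direction and their side of the threshold under every alternative run that tested them. Among these 17, S100A1, S100A5, ANXA8 and ANXA13 were not tested when a mean of at least 5 CPM was required. The sign turned for S100P with limma-voom (-0.09), the replicate block (-0.10) and the GC and length correction (-0.42), and without siOSBPL3 replicate 1, where its range over libraries left out was -0.61 to 0.40. It also turned for ANXA4 (0.50) and S100A13 (-0.26) with the correction, and for ANXA2R with the correction (-0.04) and over libraries left out (-0.11 to 0.19). The correction, applied to the ratios after seeing the data, turned S100A10 to ANXA2 (-0.354) and S100A4 to S100A6 (0.049) and moved S100A11 to ANXA1 to -2.987 (log2 differences). With a mean of at least 5 CPM, 0 of the 1q21 neighbour genes were left to call, because fewer genes were tested. Replicate numbers did not pair the libraries: deviations of same-numbered libraries correlated at -0.006, -0.009 and -0.004, none of them the best match for its number. With the replicate block, 9 S100 genes, 8 annexin genes and 12277 genes in all were called (10, 9 and 12437 without it); ANXA9 (adjusted p = 0.052) and S100A16 (0.067) missed the threshold. Depth limits S100A1, S100A7, S100Z, ANXA8 and ANXA8L1, and 3 libraries a group limit the ratios.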
